A study of Mus musculus with 15 samples.

Results

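The comparison described here set sensory neurons of mice with a spinal cord injury (SCI) against those of mice with sham surgery, 4 days after the operation. It used the 10 SCI and sham libraries of the 15 in the series and the 16141 genes, of 54108 gene symbols, whose mean over those 10 libraries was at least 1. All mice were female C57BL/6J aged 8 to 12 weeks, and each mouse gave 1 library. The 5 SCI mice had a laminectomy at T10 and a clip compression of the cord there, the 5 sham mice had the laminectomy alone, and both were caged singly and given gentamicin and saline after surgery. SCI mice also had their bladders emptied by hand, so that care and injury cannot be told apart. The remaining 5 mice were naive, unoperated and housed in groups, and they are given for context only. In every mouse the hindpaw hairy skin was injected with fluorescent wheat germ agglutinin, a lectin that is carried back along axons, and the L2 to L6 dorsal root ganglia were dissociated and sorted by size, viability and label to about 3000 cells. The ganglia lie below the level of the clip. The sort is by skin target and size, not by a nociceptor gene, and 13 of 14 satellite glia markers averaged above 10 in the libraries. Because these are bulk samples, fewer cells of a type and less RNA per cell cannot be told apart.

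Primary afferents of the dorsal root ganglion send 1 axon branch to the skin and another to the spinal cord. Small unmyelinated afferents signal heat, itch, tissue damage and gentle stroking, and the peptidergic ones release substance P and calcitonin gene-related peptide. Their excitability is set by sodium channels that carry the spike, by potassium channels that hold the membrane down, and by low-threshold calcium channels that help bring it to threshold. When a peripheral axon is cut, these neurons switch on a well-known set of regeneration genes led by the transcription factors Atf3 and Jun. Activity also drives a quick set of immediate early genes (Fos, Egr1, Arc), and the neurotrophin Bdnf is made in these neurons and acts on TrkB receptors in the dorsal horn.

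No gene passed an adjusted p of 0.05 in limma (0 of 16141, or 0%). The smallest adjusted p was 0.236. At an unadjusted p under 0.05 in limma, 352 genes (2.18%) were higher in SCI and 1096 genes (6.79%) were lower. DESeq2, run on the reads recovered from the same table, called 12 genes at an adjusted p under 0.05, and edgeR's quasi-likelihood test called 0, with 1462 genes at an unadjusted p under 0.05. Of the DESeq2 calls, 3 genes rose (0.0197% of 15195) and 9 fell (0.0592%). All 5 SCI libraries lay above all 5 sham libraries for 42 genes (0.26%) and below them for 202 genes (1.25%), and the 12 genes called by DESeq2 were among these. At an unadjusted limma p under 0.05 and a group mean above 10, 340 of 11878 genes (2.86%) were higher in SCI and 806 genes (6.79%) were lower. The study set these thresholds on DESeq2 p-values, and its removal of outlying values and its exclusion of genes that also differed between sham and naive mice were not applied here. The p-values measure the spread between these mice. Values are CPM, the reads of a gene scaled to the size of its library without regard to gene length, so levels of different genes are not compared, and differences are on the log2(CPM + 1) scale, SCI minus sham.

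The side of the difference went with how abundant the gene was. Among genes with a mean of 1 to 10 CPM, 14 were higher and 320 lower in SCI at an unadjusted p under 0.05, and among those of 10 to 100 CPM 96 were higher and 674 lower. Among the 3420 genes of 100 to 1000 CPM the split was the other way, with 242 higher and 102 lower. Over all tested genes 5538 differences were positive and 10603 negative, with a median of -0.07.

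**Figure D1:**
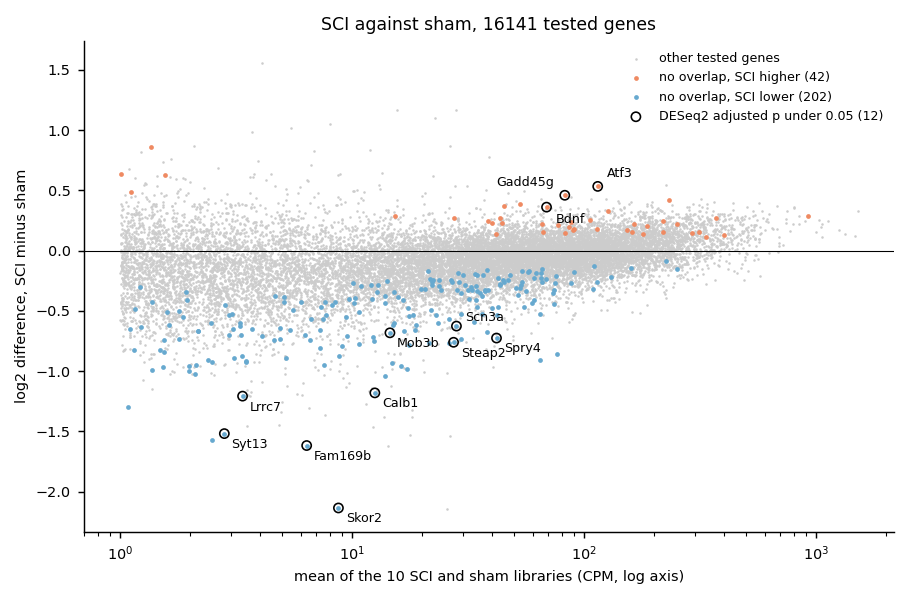
Log2 difference, SCI minus sham, of the 16141 tested genes against their mean over the 10 libraries in CPM on a log axis; orange and blue points are the 42 and 202 genes whose groups do not overlap, and rings mark the 12 genes past an adjusted p of 0.05 in DESeq2. The ringed genes below the line have mostly low means and larger differences, while the 3 above it lie between 0.36 and 0.53.

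The number of recovered reads, called depth here, moved with the groups except in 1 library. These are the reads counted in the table, fewer in every library than the total the labels give per sample, and the reason is not given in the sources used here. The SCI libraries held 3000636 to 4385542 reads, against 5346711 to 7389487 reads in 4 sham libraries and 2568656 reads in sham 2. Naive libraries held 1321632 to 7465583 reads, with naive 1 and naive 4 below all 10 libraries compared. The part of depth in the naive means given below was not tested. Over all 10 libraries log2 reads did not separate the groups (two-sided exact permutation test, p = 0.119, adjusted p = 0.222 over 4 library measures). Sham 2 also had the highest share of reads in mitochondrially encoded mRNAs and in the 100 most abundant genes, and its part in each result was not tested beyond leaving it out. Without sham 2, limma called 2503 genes at an adjusted p under 0.05, 944 higher and 1559 lower in SCI, the groups no longer overlapped for 2733 genes, and 4571 genes passed the study's thresholds. The 4 remaining sham libraries were then all deeper than all 5 SCI libraries (exact p = 0.00794, the smallest this test allows with 5 against 4 or 5 against 5). With log2 reads as a term in limma, 1 gene was called, and the split at an unadjusted p under 0.05 was 761 genes higher (4.71%) and 484 lower (3.0%), where without sham 2 it was 1546 higher (9.58%) and 3797 lower (23.5%). Quantile normalization gave 714 higher and 636 lower. The direction of the whole table thus differs between scalings, and the median of all genes was 0.01 with the depth term and -0.14 without sham 2.

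Named genes behaved in 2 ways along depth. Tubb3, a neuronal tubulin, had 354, 311, 407, 321 and 399 CPM in SCI 1 to 5, against 205, 465, 255, 234 and 229.5 CPM in sham 1 to 5. Sham 2, the shallowest library, was highest and the 4 deeper sham libraries were lowest, with every SCI library between. The log2 difference of Tubb3 was 0.43 over all libraries, 0.63 without sham 2 and 0.03 with the depth term, and Map1b, a microtubule-associated protein, gave 0.33, 0.48 and 0.04. Adcy1, the calcium-stimulated adenylyl cyclase, had 48.6, 49.4, 30.0, 33.6 and 65.6 CPM in SCI libraries, against 83.1, 97.2, 83.4, 72.8 and 78.7 CPM in sham libraries. Sham 2, which had fewer reads than every SCI library, lay with the other sham libraries, and the part of depth was not tested. The log2 difference was -0.90, -0.85 without sham 2 and -1.01 with the depth term (SE 0.18, limma adjusted p = 0.331, DESeq2 adjusted p = 0.0602). Naive libraries averaged 55.6 ± 13.9 CPM for Adcy1.

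**Figure D2:**
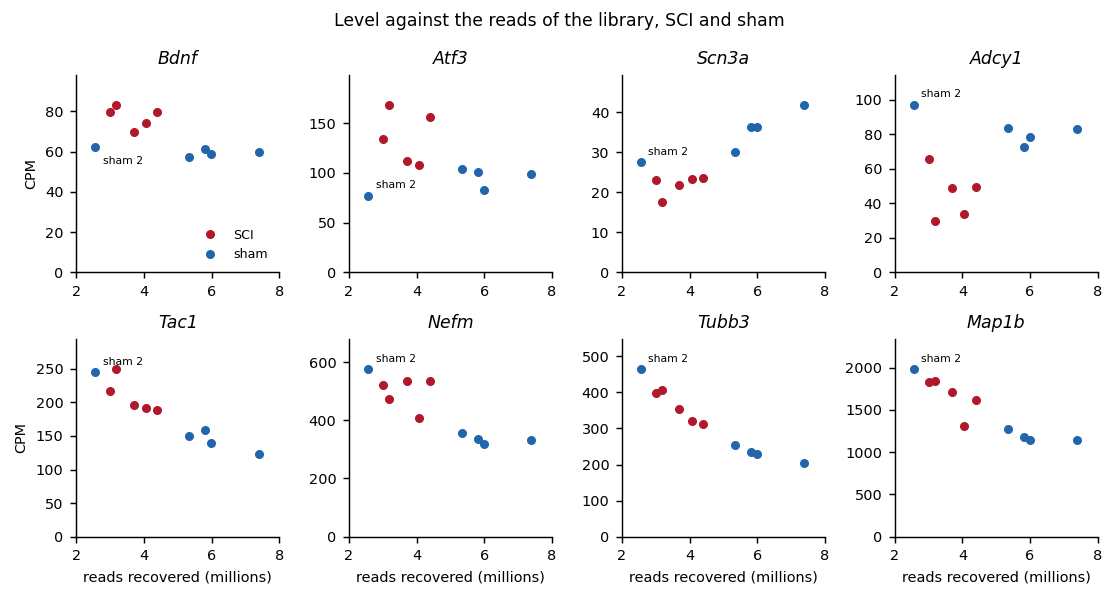
CPM of 8 genes against the reads of each library, with 5 SCI and 5 sham libraries and sham 2 labelled. For Bdnf, Atf3, Scn3a and Adcy1 sham 2 lies on the side of the other sham libraries, while for Tac1, Nefm, Tubb3 and Map1b it lies among or above the SCI libraries, which are next to it in depth.

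Of the 3 genes that rose, Bdnf is the secreted ligand of TrkB (ENSMUSG00000048482, chr2:109674700-109727007 on GRCm38, plus strand). It had 69.9, 79.9, 83.4, 74.4 and 79.9 CPM in SCI 1 to 5, against 60.1, 62.2, 57.3, 61.6 and 59.1 CPM in sham 1 to 5. All SCI libraries were above all sham libraries, the means were 77.5 ± 5.34 CPM in SCI and 60.1 ± 1.96 CPM in sham (SD, n = 5 each), and naive libraries averaged 57.3 ± 14.4 CPM. The log2 difference was 0.36 (SE 0.07, limma adjusted p = 0.331, DESeq2 adjusted p = 0.0121), with a range of 0.33 to 0.40 when each library was left out.

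Gadd45g, a growth arrest and DNA damage-inducible protein that binds stress-activated kinase regulators (chr13:51846678-51848468, plus strand), had 84.0, 98.8, 110.1, 101 and 84.4 CPM in SCI libraries, against 61.8, 64.2, 73.6, 79.3 and 67.2 CPM in sham libraries. The lowest SCI library was above the highest sham library, and the naive mean of 79.8 ± 14.2 CPM lay between the group means. Its log2 difference was 0.46 (SE 0.10, limma adjusted p = 0.347, DESeq2 adjusted p = 0.0121).

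Atf3, a bZIP transcription factor that marks neurons with injured axons (chr1:191170296-191218039, minus strand), had 112, 156, 169, 108 and 134 CPM in SCI libraries, against 99.1, 77.2, 104, 101 and 82.4 CPM in sham libraries. The gap was small, 108 CPM in SCI 4 against 104 CPM in sham 3, and naive libraries averaged 119 ± 35.7 CPM, above the sham mean of 92.8 ± 12.1 CPM. The log2 difference was 0.53 (SE 0.13, limma adjusted p = 0.491, DESeq2 adjusted p = 0.0420), 0.47 without sham 2 and 0.61 with the depth term. The study reported no significant Atf3 difference between its conditions. It proposes that axons injured while the ganglia are dissociated may raise Atf3, and that SCI itself does not. That was not tested here.

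The promoters of these 3 genes are shown because the cyclic AMP response element, bound by CREB and ATF factors, and the AP-1 site, bound by Jun and Fos, belong to genes induced by activity and injury. RefSeq windows on GRCm38.p6, the 250 bases before an annotated start, were found for 7 of the 12 called genes, 16 windows in all. Searched on both strands were the full element TGACGTCA, its half-site TGACG, which is part of the full element, and the AP-1 letters TGANTCA. They occur in 1.55%, 17.8% and 6.75% of 32851 windows of that length. The single Atf3 window (chr1:191183334-191183583, minus strand), 1 of the 7 Bdnf windows (chr2:109692186-109692435, plus strand) and the single Gadd45g window (chr13:51846425-51846674, plus strand) read as follows, 5′ to 3′, with half-sites in capitals.
Atf3: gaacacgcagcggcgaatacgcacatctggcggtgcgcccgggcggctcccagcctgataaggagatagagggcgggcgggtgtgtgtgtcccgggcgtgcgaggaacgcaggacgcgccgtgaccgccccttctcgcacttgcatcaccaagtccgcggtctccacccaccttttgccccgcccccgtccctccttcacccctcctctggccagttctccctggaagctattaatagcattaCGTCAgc
Bdnf: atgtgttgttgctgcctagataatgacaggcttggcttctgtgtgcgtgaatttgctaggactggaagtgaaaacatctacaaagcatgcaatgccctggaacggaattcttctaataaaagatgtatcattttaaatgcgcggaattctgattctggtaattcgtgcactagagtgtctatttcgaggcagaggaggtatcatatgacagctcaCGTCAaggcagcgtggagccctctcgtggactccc
Gadd45g: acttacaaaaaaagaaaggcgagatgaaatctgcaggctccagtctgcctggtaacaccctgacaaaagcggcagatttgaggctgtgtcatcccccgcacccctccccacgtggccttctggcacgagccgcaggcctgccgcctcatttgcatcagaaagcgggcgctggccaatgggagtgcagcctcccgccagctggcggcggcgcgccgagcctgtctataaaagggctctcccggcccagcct
The Atf3 window has 1 half-site 7 bases before the start, the Bdnf window has 1 at 35 bases before it, and the Gadd45g window has none of the 3 motifs. A window of Steap2, which fell in SCI, also has a half-site, 57 bases before the start. Of the 16 windows, 3 (18.8%) hold a half-site, near the share of all windows. Another Bdnf window holds an AP-1 match, and the full element is in none of the 16 windows. These are letter matches and say nothing of binding in these cells.

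The 9 genes that fell, here meaning lower in SCI than in sham, include components of synapses, calcium handling and membrane excitability. The synaptic ones, Lrrc7 and Syt13, rest on few reads in SCI libraries. Skor2, a corepressor of the SKI family, had the largest log2 difference of the called genes. It had 2.55, 2.15, 1.32, 2.32 and 2.44 CPM in SCI libraries, against 11.4, 34.1, 16.5, 5.43 and 8.94 CPM in sham libraries. Every SCI library was below every sham library, and sham 2 was the highest of all. The log2 difference was -2.14 (SE 0.36, limma adjusted p = 0.236, DESeq2 adjusted p = 0.00039) and -1.80 without sham 2. Naive libraries averaged 8.29 ± 5.69 CPM.

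Scn3a encodes Nav1.3, a sodium channel known to be re-expressed by rodent sensory neurons after axotomy, and it fell in SCI (chr2:65457118-65567627, minus strand). It had 21.8, 23.6, 17.5, 23.2 and 23.0 CPM in SCI libraries, against 41.9, 27.6, 30.0, 36.2 and 36.3 CPM in sham libraries. The groups did not overlap, with 23.6 CPM in SCI 2 and 27.6 CPM in sham 2 the nearest values. The log2 difference was -0.63 (SE 0.13, limma adjusted p = 0.347, DESeq2 adjusted p = 0.0186), -0.45 with the depth term, and naive libraries averaged 26.8 ± 4.31 CPM.

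Calb1, the calcium buffer calbindin (chr4:15881264-15908064, plus strand), had 7.64, 7.16, 4.28, 10.3 and 6.98 CPM in SCI libraries, against 13.2, 17.9, 12.6, 22.5 and 22.6 CPM in sham libraries. All SCI libraries were below all sham libraries, and the naive mean of 5.20 ± 4.09 CPM was below both group means, 7.28 ± 2.15 CPM in SCI and 17.7 ± 4.83 CPM in sham. The log2 difference was -1.18 (SE 0.23, limma adjusted p = 0.331, DESeq2 adjusted p = 0.0121). Calb1 also marks a class of myelinated touch neurons, and it is among the genes the study named from these libraries.

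Lrrc7, the postsynaptic scaffold densin-180, had 1.41, 1.43, 1.65, 1.81 and 1.74 CPM in SCI libraries, against 5.68, 4.07, 4.32, 4.35 and 7.19 CPM in sham libraries. These values rest on 5 to 7 reads in SCI and 10 to 41 reads in sham libraries, and the groups did not overlap (log2 difference -1.21, SE 0.20, limma adjusted p = 0.236, DESeq2 adjusted p = 0.0208). Syt13, an atypical synaptotagmin, rested on 1 to 6 reads in SCI and 16 to 36 reads in sham libraries. It had 0.283, 0.954, 0.659, 1.55 and 1.40 CPM in SCI libraries, against 5.11, 7.32, 3.14, 3.98 and 3.68 CPM in sham libraries. Every SCI value was below every sham value, at a log2 difference of -1.52 (SE 0.26, limma adjusted p = 0.236, DESeq2 adjusted p = 0.0186). Naive means, 2.85 ± 2.40 CPM for Lrrc7 and 2.16 ± 1.89 CPM for Syt13, lay between the group means and nearer to SCI. They include 0 CPM for both genes in naive 4, which held 1431111 reads, fewer than any SCI or sham library.

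Spry4, an inhibitor of signalling from receptor tyrosine kinases to ERK, had 33.9, 37.0, 25.7, 38.2 and 23.0 CPM in SCI libraries, against 49.9, 49.6, 60.6, 45.6 and 54.9 CPM in sham libraries. The groups were apart (log2 difference -0.73, SE 0.14, limma adjusted p = 0.331, DESeq2 adjusted p = 0.0190). Steap2, a metalloreductase of iron and copper uptake, had 15.6, 24.3, 19.4, 18.3 and 23.0 CPM in SCI libraries, against 36.9, 37.8, 30.0, 33.1 and 34.7 CPM in sham libraries. All SCI libraries lay below all sham libraries, and its log2 difference was -0.76 (SE 0.13, limma adjusted p = 0.236, DESeq2 adjusted p = 0.0121). Naive means of 39.3 ± 4.74 CPM for Spry4 and 28.5 ± 7.08 CPM for Steap2 lay between the group means.

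Mob3b, a member of the MOB kinase activator family, had 13.01, 10.7, 9.56, 9.56 and 11.9 CPM in SCI libraries, against 19.9, 15.9, 16.9, 18.8 and 19.1 CPM in sham libraries. The groups did not overlap (log2 difference -0.68, SE 0.14, limma adjusted p = 0.331, DESeq2 adjusted p = 0.0499). Fam169b had 3.68, 5.25, 0.659, 3.62 and 1.05 CPM in SCI libraries, against 16.3, 8.54, 8.64, 6.88 and 8.94 CPM in sham libraries. SCI 3 and SCI 5 were lowest and sham 1 stood highest (log2 difference -1.62, SE 0.36, limma adjusted p = 0.419, DESeq2 adjusted p = 0.0499). Both sat at the edge of the threshold. Naive means of 16.7 ± 3.37 CPM for Mob3b and 5.61 ± 1.35 CPM for Fam169b lay between the group means.

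**Figure D3:**
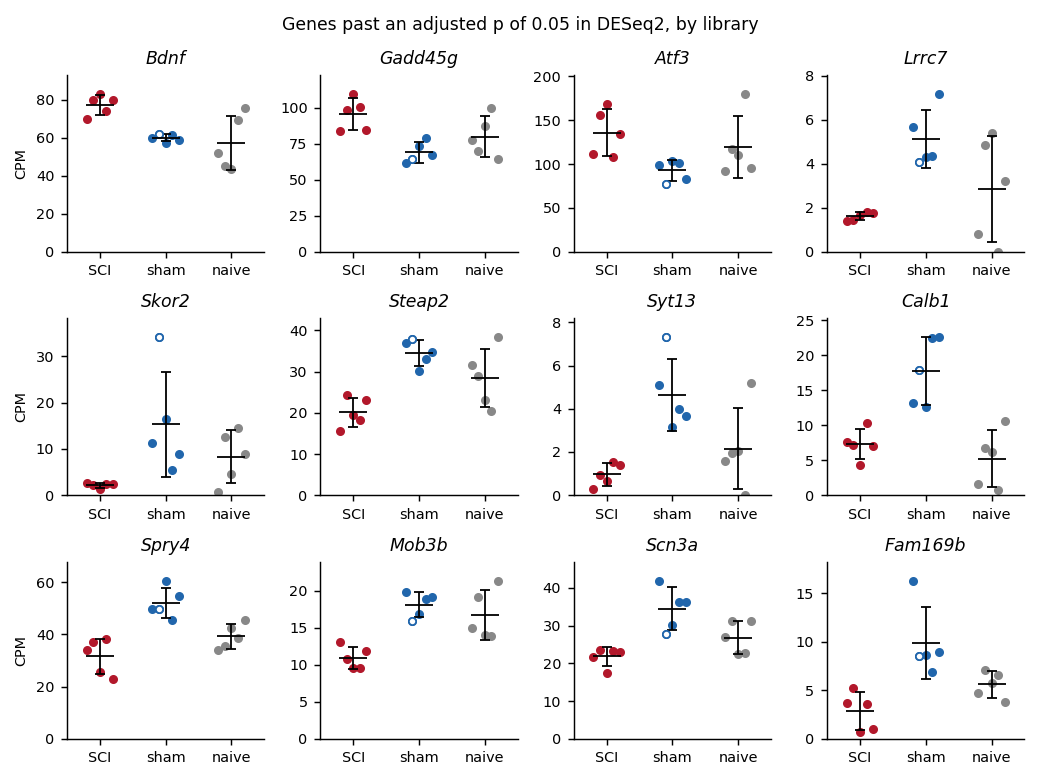
CPM per library of the 12 genes past an adjusted p of 0.05 in DESeq2, with SCI left, sham in the middle and naive right; points are libraries, bars are the mean ± SD of 5, and the open circle is sham 2. SCI and sham points do not overlap in any panel, and naive points lie between or across them in most panels but near SCI for Calb1.

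Other genes with the smallest limma p-values did not pass any adjusted threshold and are given as values. Fmn2, an actin-nucleating formin, had 65.3, 62.3, 57.0, 62.2 and 66.6 CPM in SCI libraries, against 98.7, 82.9, 84.6, 75.3 and 88.0 CPM in sham libraries, with no overlap (log2 difference -0.45, limma adjusted p = 0.331). Fam126b, a subunit of the lipid kinase complex at the plasma membrane, averaged 52.5 ± 5.79 CPM in SCI and 76.3 ± 10.5 CPM in sham, and Tbc1d8, a Rab GTPase-activating protein, averaged 46.0 ± 3.83 CPM in SCI and 64.1 ± 7.01 CPM in sham, both without overlap. Prokr2, the receptor for prokineticins, was also apart, at 5.93 to 11.2 CPM in SCI and 12.5 to 28.5 CPM in sham libraries (log2 difference -1.04, limma adjusted p = 0.347). Naive libraries averaged 68.6 ± 15.9 CPM for Fmn2, 55.5 ± 19.6 CPM for Fam126b, 51.3 ± 8.41 CPM for Tbc1d8 and 11.4 ± 9.63 CPM for Prokr2. Each naive mean was nearer to the SCI than to the sham mean.

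Genes higher in SCI with the smallest limma p-values likewise passed no adjusted threshold. Serpina3n, a secreted inhibitor of leukocyte elastase, had 267, 237, 334, 223 and 264 CPM in SCI libraries, against 168, 260.2, 162, 156 and 169.6 CPM in sham libraries. Only sham 2 reached the SCI range (log2 difference 0.54, limma adjusted p = 0.493), and the difference was 0.29 with the depth term. Serpinb1a, an inhibitor of neutrophil proteases, had 39.8 to 62.2 CPM in SCI and 17.2 to 41.6 CPM in sham libraries (log2 difference 0.78), and this was 0.79 with the depth term. Bag3, a co-chaperone of HSP70, had 218 to 274 CPM in SCI and 169 to 222 CPM in sham libraries, and Slc10a6, a transporter of sulfated steroids, had 46.4 to 61.0 CPM in SCI and 34.7 to 43.5 CPM in sham libraries with no overlap. Vgf, the precursor of peptides released from dense-core vesicles, had 153 to 233 CPM in SCI and 127 to 155 CPM in sham libraries (log2 difference 0.40, limma adjusted p = 0.493). Serpina3n and Bag3 averaged 278 ± 97.2 and 247 ± 55.1 CPM in naive libraries, at or above their SCI means, while Serpinb1a averaged 33.8 ± 17.8 CPM and Slc10a6 37.2 ± 14.6 CPM there.

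Of 10 genes the study named for large changes, chosen from these same libraries, 6 were lower and 0 higher at an unadjusted p under 0.05, and the median log2 difference of the 10 was -0.95 against -0.07 over all tested genes. With the depth term 5 were lower and 2 higher and the median was -0.52, and without sham 2 8 were lower and 0 higher and it was -1.07. Of all genes 6.79% were lower and 2.18% higher over all libraries. Those shares were 3.0% and 4.71% with the depth term, and 23.5% and 9.58% without sham 2. Rxfp1, the relaxin receptor, had 14.4, 7.16, 4.28, 12.1 and 10.1 CPM in SCI libraries, against 22.0, 9.35, 29.2, 31.3 and 40.3 CPM in sham libraries. Sham 2 lay inside the SCI range and the other sham libraries above it (log2 difference -1.33, limma adjusted p = 0.493, and -0.82 with the depth term). Chrnb4, a nicotinic acetylcholine receptor subunit, was lower by -0.96 on the log2 scale over all libraries and by -0.21 with the depth term, with 2.64 to 15.5 CPM in SCI and 4.47 to 27.0 CPM in sham libraries. Nxpe2 had 8.24 to 15.98 CPM in SCI and 16.1 to 31.7 CPM in sham libraries, and Arap3, a GTPase-activating protein, had 3.36 to 6.92 CPM in SCI and 8.42 to 13.5 CPM in sham libraries, both without overlap. Their naive means were 17.7 ± 2.81 CPM for Nxpe2 and 5.11 ± 1.71 CPM for Arap3.

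Sodium channels were mixed. Of 14 tested members, 2 were lower and 1 higher at an unadjusted p under 0.05, where 6.79% of all genes were lower and 2.18% higher. The list's median of -0.09 was near that of all genes. Scn10a, the nociceptor channel Nav1.8, averaged 802 ± 86.0 CPM in SCI and 673 ± 129 CPM in sham, at a log2 difference of 0.26 that was 0.04 with the depth term.

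Of 55 potassium channel genes tested, 44 differences were negative, and 10 members were lower and 1 higher at an unadjusted p under 0.05, where 6.79% of all genes were lower and 2.18% higher. With the depth term 10 were lower and 2 higher, where 3.0% of all genes were lower and 4.71% higher. Without sham 2 the counts were 14 lower and 4 higher, near the 23.5% and 9.58% of all genes in that fit, and the median was -0.15 in the list and -0.14 over all genes. Kcnab1, a beta subunit that speeds inactivation of Kv1 channels, had 49.8, 60.8, 29.0, 75.7 and 63.2 CPM in SCI libraries, against 98.3, 109, 93.6, 93.6 and 91.0 CPM in sham libraries. It was the clearest of the family, with no overlap and sham 2 the highest library (log2 difference -0.86, SE 0.19, limma adjusted p = 0.435, DESeq2 adjusted p = 0.0793).

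Of 8 leak channels of the 2-pore family tested, 3 were lower and 0 higher at an unadjusted p under 0.05, and 6 differences were negative and 2 positive. The share lower among all genes was 6.79%. This subfamily and the calcium-activated one below were cut from the potassium channel list and were not planned. Their lower members are among those already counted in that list, and they were not counted in the other fits. Kcnk18, the channel TRESK of nociceptors, had 14.1, 13.1, 18.1, 15.2 and 12.9 CPM in SCI libraries, against 26.6, 19.9, 20.02, 21.2 and 20.7 CPM in sham libraries. No value overlapped (log2 difference -0.53, SE 0.14, limma adjusted p = 0.493). Kcnk13 (THIK-1) had 8.24 to 20.9 CPM in SCI and 18.7 to 26.7 CPM in sham libraries, and Kcnk1 (TWIK-1) had 11.2 to 26.5 CPM in SCI and 22.3 to 37.8 CPM in sham libraries. Their log2 differences were -0.67 and -0.66, and their groups overlapped.

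Of 4 calcium-activated potassium channels tested, which follow a spike with a hyperpolarization, 3 were lower and 0 higher at an unadjusted p under 0.05, and all 4 differences were negative. Among all genes 6.79% were lower, and this grouping was not planned. Kcnn3 (SK3) had 22.1 to 50.6 CPM in SCI and 36.6 to 57.3 CPM in sham libraries at a log2 difference of -0.69. Kcnn2 (SK2) had 15.4 to 20.1 CPM in SCI and 20.47 to 24.4 CPM in sham libraries with no overlap (log2 difference -0.32), and Kcnma1 (BK) had 101 to 117 CPM in SCI and 102 to 197 CPM in sham libraries (log2 difference -0.39, and -0.16 with the depth term). Kcnd3, the A-type channel Kv4.3, had a log2 difference of -0.39, and Kcnip1, a protein that binds Kv4 channels, was the 1 higher member at 0.33. Kcnd3, Kcnn2, Kcnma1 and Kcnip1 were chosen after their values were seen. The voltage-gated members Kcnh8 and Kcng3 had differences of -0.54 and -0.48.

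Receptors for the inhibitory transmitters GABA and glycine, through which dorsal horn interneurons depolarize afferent terminals, were lower in 6 of 17 tested members and higher in 0 at an unadjusted p under 0.05. Among all genes 6.79% were lower and 2.18% higher. With the depth term the counts were 6 lower and 0 higher, where 3.0% of all genes were lower. Without sham 2 they were 6 lower and 1 higher, where 23.5% of all genes were lower and 9.58% higher. Quantile normalization gave 3 lower and 0 higher. The list's median was -0.22, -0.17 with the depth term and -0.18 without sham 2, where that of all genes was -0.14. Gabra4 was the only one of the 6 without overlap, at 0.716 to 1.41 CPM in SCI and 2.03 to 4.71 CPM in sham libraries, on 3 to 5 reads per SCI library. Gabrg3 had 4.53, 5.49, 3.95, 7.23 and 10.5 CPM in SCI libraries, against 33.2, 4.47, 14.7, 17.6 and 16.3 CPM in sham libraries, where sham 2 was within the SCI range (log2 difference -1.16, and -0.50 with the depth term). Gabra2 and Gabrb1, chosen after their values were seen, had differences of -0.33 and -0.42, and the glycine receptor gene Glra2 had -0.66 at 1.07 ± 0.503 CPM in SCI and 2.21 ± 0.461 CPM in sham.

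Of 19 voltage-gated calcium channel genes tested, 3 were lower and 0 higher at an unadjusted p under 0.05, and 9 differences were positive and 10 negative, with a median of -0.05 near that of all genes. For this list and the Trp and glutamate receptor lists below, the shares of all genes were 6.79% lower and 2.18% higher. The low-threshold Cav3 channels have 3 genes, all tested. Cacna1h (Cav3.2) had 159, 219, 174, 189 and 225 CPM in SCI libraries, against 228, 305, 274, 209 and 216 CPM in sham libraries, at a log2 difference of -0.35 with overlap. Cacna1i (Cav3.3) had a log2 difference of -0.49. Cacna1g (Cav3.1), chosen after its values were seen, averaged 16.03 ± 4.64 CPM in SCI and 19.4 ± 10.4 CPM in sham, at a log2 difference of 0.03 that was 1.05 with the depth term and -0.57 without sham 2. Among Trp channels 2 of 18 were lower, Trpc4 at -0.59 and Trpv4, an osmosensitive channel, at -0.70, and 0 were higher. Of 23 glutamate receptor genes Grm3 (-1.02) and Grik3 (-0.29) were lower, and the list's median of -0.08 was near that of all genes.

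**Figure D4:**
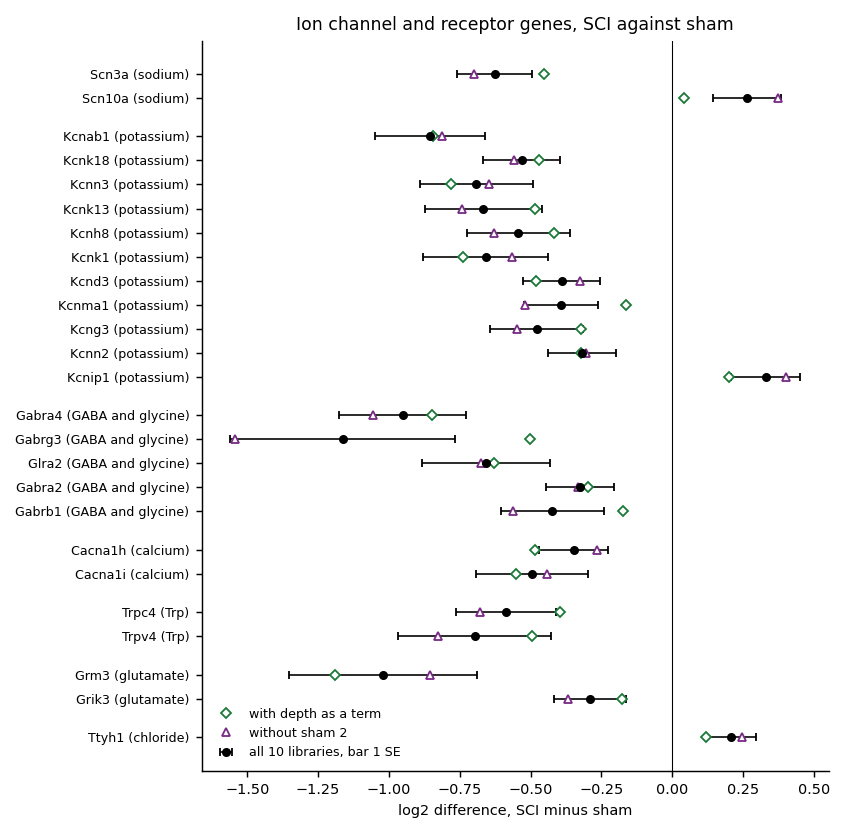
Log2 difference, SCI minus sham, of the ion channel and receptor genes named in the text apart from Cacna1g, by family; black points are all 10 libraries with a bar of 1 SE, green diamonds the fit with depth as a term and purple triangles the fit without sham 2. All but Scn10a, Kcnip1 and Ttyh1 lie left of 0 in all 3 fits, and Gabrg3, Kcnma1 and Gabrb1 lie nearer to 0 with the depth term.

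The ion channel genes the study named, again from these libraries, gave 10 lower and 2 higher of 19 at an unadjusted p under 0.05, with 8 lower and 2 higher with the depth term. Of all genes 6.79% were lower and 2.18% higher, and 3.0% and 4.71% with the depth term. The 2 higher members of the list were Ttyh1, a chloride channel homologue also made by glia, at 0.21, and Calcb, which encodes the beta form of calcitonin gene-related peptide. For Ttyh1 the study gives the other direction, a lower mean in SCI than in sham. Calcb had 82.6, 78.2, 85.0, 84.7 and 82.3 CPM in SCI libraries, against 63.5, 77.2, 66.9, 77.5 and 71.7 CPM in sham libraries. The groups were separated by less than 1 CPM (log2 difference 0.21, SE 0.07, limma adjusted p = 0.541).

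Of 25 axon injury and regeneration genes tested, 8 were higher and 0 lower at an unadjusted p under 0.05, where 2.18% of all genes were higher, and 22 differences were positive. The counts were 11 higher and 0 lower with the depth term and 7 higher and 0 lower without sham 2, where 4.71% and 9.58% of all genes were higher, and the median of 0.27 was 0.25 and 0.10 in those fits. Besides Atf3 the 8 were Jun, Socs3, Hspb1, Stat3, Gap43, Gal and Stmn4, of which the last 3 were chosen after their values were seen. Jun had 329, 317, 348, 323 and 297 CPM in SCI libraries, against 221, 317, 275, 254 and 253 CPM in sham libraries. Sham 2 alone was inside the SCI range (log2 difference 0.30, SE 0.09, limma adjusted p = 0.519).

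Socs3, an inhibitor of JAK and STAT signalling, had 264, 259, 264, 257 and 211 CPM in SCI libraries, against 174, 223, 222, 206 and 214 CPM in sham libraries, and SCI 5 was the 1 SCI library in the sham range (log2 difference 0.27). Hspb1, the small heat shock protein HSP27, had 46.7 to 61.3 CPM in SCI and 34.2 to 52.9 CPM in sham libraries (log2 difference 0.39). Gap43, a growth cone protein, was higher by 0.35 and by 0.07 with the depth term, Gal, the peptide galanin, by 0.30 and 0.25, and Stmn4, a tubulin-binding stathmin, by 0.36 and 0.44. The 3 factors Atf3, Jun and Stat3 averaged 119 ± 35.7, 345 ± 82.0 and 465 ± 81.4 CPM in naive libraries, each above its sham mean. For Jun and Stat3 the naive mean was also above the SCI mean, and for Atf3 it lay between the SCI and sham means.

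Immediate early genes gave 9 higher and 1 lower of 27 tested at an unadjusted p under 0.05, sharing Atf3 and Jun with the injury list. With the depth term the counts were 12 higher and 0 lower, and without sham 2 they were 9 higher and 4 lower. Of all genes 2.18% were higher over all libraries, 4.71% with the depth term and 9.58% without sham 2, where 23.5% were lower. The list's median was 0.17, 0.18 and 0.06 in those fits, against -0.07, 0.01 and -0.14 over all genes. Egr1, a zinc finger factor of activity and growth factor signals, had 424, 384, 432, 403 and 376 CPM in SCI libraries, against 283, 374, 354, 328 and 339 CPM in sham libraries. Egr1 groups did not overlap (log2 difference 0.27, SE 0.08, limma adjusted p = 0.519). Fos had a log2 difference of 0.29 (0.09 with the depth term), Myc 0.30 (0.39), Junb 0.23 (0.12), Nr4a1 0.18 (0.18) and Zfp36, which destabilizes cytokine mRNAs, 0.20 (0.23). Arc, a synaptic capsid-like protein, was the lower one, with 44.7 to 95.6 CPM in SCI and 66.3 to 119.8 CPM in sham libraries (log2 difference -0.46). Fos, Zfp36 and Arc were chosen after their values were seen.

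The study named 27 transcription factors from these libraries, and 10 were higher and 14 lower at an unadjusted p under 0.05. With the depth term the counts were 8 higher and 5 lower. Of all genes 2.18% were higher and 6.79% lower, and 4.71% and 3.0% with the depth term. Drap1, a corepressor of basal transcription, had 70.1, 68.9, 72.5, 70.3 and 71.5 CPM in SCI libraries, against 56.4, 67.9, 59.9, 59.8 and 59.8 CPM in sham libraries. The groups did not overlap, and sham 2 was nearest to SCI (log2 difference 0.22). Erf, a repressor of the ETS family, had 127 to 180.2 CPM in SCI and 105 to 120.3 CPM in sham libraries, and Atf4, the effector of the integrated stress response, had 134 to 161 CPM in SCI and 104 to 150.0 CPM in sham libraries. On the lower side Tbx3 had 15.3 to 23.9 CPM in SCI and 23.9 to 49.6 CPM in sham libraries (log2 difference -0.77), and Zfhx3 had 100.2 to 108 CPM in SCI and 111 to 144 CPM in sham libraries (log2 difference -0.26).

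Neuropeptides and the proteins of their secretory granules gave 13 higher and 1 lower of 24 tested at an unadjusted p under 0.05, with a median of 0.25, but 4 higher and 1 lower and a median of 0.08 with the depth term. The share of all genes that were higher was 2.18%, and 4.71% with the depth term. Tac1, the precursor of substance P, had 196, 188, 250.1, 191 and 217 CPM in SCI libraries, against 123, 245, 150.1, 159 and 140.1 CPM in sham libraries. Sham 2 was next to the highest SCI library and the other sham libraries were below all SCI libraries (log2 difference 0.38, SE 0.15, limma adjusted p = 0.541). That difference was 0.54 without sham 2 and 0.07 with the depth term.

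Calca (calcitonin gene-related peptide), Adcyap1 (PACAP) and Scg2 (secretogranin II) behaved alike, with log2 differences of 0.38, 0.36 and 0.39, of 0.55, 0.48 and 0.58 without sham 2, and of 0.03, 0.13 and 0.03 with the depth term. The part of depth in these differences was not tested. Npy1r, the inhibitory receptor for neuropeptide Y, had a log2 difference of 0.34 that was 0.32 with the depth term, and 138 to 209.6 CPM in SCI and 108 to 147 CPM in sham libraries. Chga, a granule protein, averaged 123 ± 6.47 CPM in SCI and 105 ± 11.8 CPM in sham. Pomc, the opioid precursor, was the lower one, at 0.716 to 1.40 CPM in SCI and 1.57 to 2.54 CPM in sham libraries, on 3 to 4 reads per SCI library.

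Synapse genes were split by direction. Of 25 synaptogenesis genes the study named from these libraries, 11 were higher and 6 lower at an unadjusted p under 0.05, and 5 higher and 4 lower with the depth term. Among all genes the shares were 2.18% higher and 6.79% lower, and 4.71% and 3.0% with the depth term. Each of the 6 lower ones lay further from 0 on the log2 scale than each of the 11 higher ones. Plcg2, a phospholipase C downstream of receptor kinases, had 5.37, 8.35, 2.97, 8.26 and 5.58 CPM in SCI libraries, against 12.8, 10.2, 12.2, 10.5 and 11.9 CPM in sham libraries. No value overlapped (log2 difference -0.88, SE 0.23, limma adjusted p = 0.493).

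Ephb2, a receptor kinase that clusters glutamate receptors, had 5.73 to 10.8 CPM in SCI and 11.0 to 20.2 CPM in sham libraries (log2 difference -0.72). Syn3, a synapsin of vesicles, had 27.4, 27.9, 27.7, 27.1 and 25.1 CPM in SCI libraries, against 45.2, 28.9, 31.4, 35.9 and 41.2 CPM in sham libraries, with no overlap and sham 2 nearest to SCI (log2 difference -0.40, and -0.23 with the depth term). Cdh10, a cadherin of cell adhesion, had 21.7 to 42.4 CPM in SCI and 43.1 to 52.8 CPM in sham libraries (log2 difference -0.48). On the higher side Camk2g, Syt4 and Cadm1 had differences of 0.29, 0.22 and 0.18. Of these Camk2g was at 0.11 with the depth term.

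The postsynaptic scaffolds Shank1 and Shank3 were lower by -0.60 and -0.33 on the log2 scale. Shank3 had 32.0, 36.5, 32.3, 32.5 and 30.4 CPM in SCI libraries, against 50.3, 39.0, 43.2, 37.5 and 37.9 CPM in sham libraries, and the groups did not overlap. Doc2b, a calcium sensor of spontaneous release, had 3.30 to 7.75 CPM in SCI and 7.72 to 29.3 CPM in sham libraries (log2 difference -1.06). Of the kinase genes, Camkk2, which activates other calcium/calmodulin kinases, had 64.2 to 70.5 CPM in SCI and 75.6 to 87.3 CPM in sham libraries without overlap (log2 difference -0.27). Dusp5, a nuclear phosphatase of ERK, was lower by -0.64, beside Spry4 above.

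Markers of the skin afferent classes were read for the labelled cell type. All 14 nociceptor markers averaged above 10 CPM, 5 were higher and 0 lower in SCI at an unadjusted p under 0.05, and their summed level was 3782 to 4614 CPM in SCI and 3261 to 4806 CPM in sham libraries, where the highest sham value was sham 2. With the depth term 1 was higher and 0 lower and the list's median was 0.03 in place of 0.23, and without sham 2 9 were higher and 0 lower. The share of all genes that were higher was 2.18%, with 4.71% and 9.58% in those fits. However, 13 of the 14 markers averaged above 100 CPM, and 7.08% of genes of 100 to 1000 CPM were higher over all libraries. Markers of C-LTMRs, unmyelinated afferents of hairy skin that respond to stroking, were negative in 7 of 7 tested members and lower in 3 at an unadjusted p under 0.05. Among all genes 6.79% were lower. The median of the C-LTMR markers was -0.34, -0.27 without sham 2 and -0.43 with the depth term. Slc17a8, the vesicular glutamate transporter VGLUT3, had 26.3, 51.5, 23.7, 39.5 and 46.1 CPM in SCI libraries, against 47.0, 58.9, 55.9, 47.5 and 64.9 CPM in sham libraries. SCI 1 and SCI 3 were lowest (log2 difference -0.59, SE 0.19, limma adjusted p = 0.541).

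Th, tyrosine hydroxylase, had 53.5, 108, 43.8, 93.0 and 79.5 CPM in SCI libraries, against 103, 107, 110.5, 89.7 and 112 CPM in sham libraries, again with SCI 1 and SCI 3 lowest and SCI 2 and SCI 4 within the sham range (log2 difference -0.53). Zfp521, a zinc finger factor of the same neurons, had 81.1 to 129 CPM in SCI and 104 to 158 CPM in sham libraries (log2 difference -0.36). The 3 genes were low in the same SCI libraries. Their summed list ranged over 691 to 1087 CPM in SCI and 959.9 to 1285 CPM in sham libraries, which overlap.

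Markers of other cells were present at levels that overlapped between the groups. Satellite glia markers gave 4 higher and 0 lower of 14 at an unadjusted p under 0.05, and 1 and 0 with the depth term, and they summed to 3360 to 4169 CPM in SCI and 2925 to 3839 CPM in sham libraries. Among all genes 2.18% were higher, and 4.71% with the depth term. Of the 14 satellite glia markers 12 averaged above 100 CPM, and 7.08% of genes of 100 to 1000 CPM were higher over all libraries. Sox10, a glial transcription factor, averaged 254 ± 28.5 CPM in SCI and 213 ± 14.1 CPM in sham (log2 difference 0.25, and 0.21 with the depth term), and Fabp7 had a difference of 0.36 that was 0.10 with the depth term. Macrophage markers summed to 20.4 to 132 CPM in SCI and 18.7 to 118 CPM in sham libraries, with 0 of 12 past an unadjusted p of 0.05 in either direction in limma. All 8 neutrophil and all 5 erythrocyte markers averaged under 1 CPM. Of the interleukin-6 pathway genes, Il6ra had 1.98 to 3.58 CPM in SCI and 4.07 to 6.34 CPM in sham libraries (log2 difference -0.71), and Stat3 averaged 429.9 ± 30.7 CPM in SCI and 374 ± 44.2 CPM in sham (log2 difference 0.21, and 0.07 with the depth term).

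Gene lists of the cell's bulk machinery moved with depth and sham 2. Of 75 ribosomal protein genes 0 passed an unadjusted p of 0.05 in limma over all libraries and 38 were higher in SCI without sham 2, and of 32 axon cytoskeleton genes 5 were higher over all libraries, 25 without sham 2 and 0 with the depth term. The shares of all genes that were higher were 2.18%, 9.58% and 4.71% in those fits. Of the cytoskeleton genes 28 averaged above 100 CPM, and 7.08% of genes of 100 to 1000 CPM were higher over all libraries. Nefm, a neurofilament subunit, had 537, 535, 474, 409 and 523 CPM in SCI libraries, against 333, 577, 355, 335 and 320.0 CPM in sham libraries. Sham 2 was the highest of the 10 (log2 difference 0.40, 0.55 without sham 2 and 0.14 with the depth term). The potassium channel, GABA receptor and C-LTMR lists kept a median below 0 and the injury and immediate early lists one above 0 in all 3 of these fits, where the median of all genes was -0.07, -0.14 without sham 2 and 0.01 with the depth term. Other lists kept their sign too. The median stayed above 0 for nociceptor markers, neuropeptides and satellite glia markers, and below 0 for interferon response genes.

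**Figure D5:**
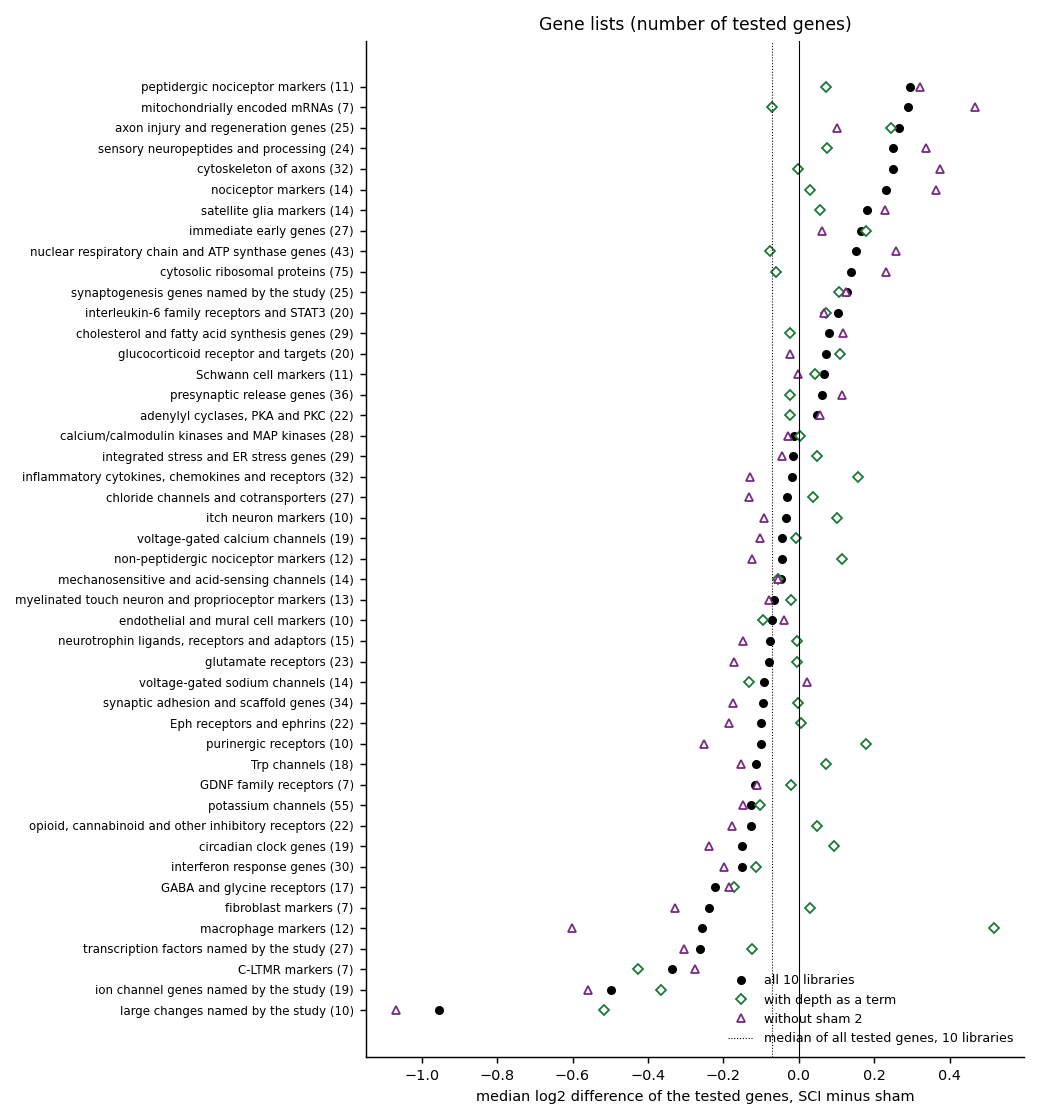
Median log2 difference, SCI minus sham, of the tested genes of each list with its number of genes; black points are all 10 libraries, green diamonds the fit with depth as a term, purple triangles the fit without sham 2, and the dotted line the median of all tested genes. Lists of cytoskeleton, ribosomal and respiratory genes change sides or reach 0 with the depth term, while C-LTMR markers stay left and axon injury genes right of 0.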

How the data were processed

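One library of polyadenylated RNA per mouse was read as single ends of 75 bases. According to the study's methods and the submitters' processing notes, the authors aligned reads with HISAT2 to mm10, counted them with HTSeq and compared groups with DESeq2. Versions, the counting annotation and the treatment of duplicate reads are not given in the sources used here. The deposited values carry the name RPKM but were treated as a signal, since within each library every value was a whole multiple of 1 number that does not depend on gene length. All values came out whole within 1e-06 of a read (100% of values in each library), so reads were recovered and the values are called CPM. The scaling number covers 94.9 to 95.8% of each library. The SCI and sham libraries held 2568656 to 7389487 recovered reads (those counted in the table, fewer than the total reads the labels give), and 1 read equals 0.142 to 0.407 CPM, so counting error is largest for genes of a few CPM.

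Of 54232 lines, 27 named by a number (at most 0.21% of reads) and 97 that repeat a symbol were left out, which leaves 54108 symbols. Columns of the authors' group means were not used, and no column of the authors' own comparisons was used. Genes with a mean of at least 1 over the 10 libraries were tested on log2(CPM + 1) with limma 3.58.1 in R 4.3.3 (variance trend over the mean, two-sided, Benjamini-Hochberg over all tested genes, threshold 0.05). Alternatives used edgeR 4.0.16 and DESeq2 1.42.0 on recovered reads, other pseudocounts, filters, scalings and library weights, removal of outlying values, and each library left out. Calls named as DESeq2 calls come from that run. Each test was tried on simulated data with known changes. Library measures were compared by exact permutation.

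Genes named are, per direction, those past an adjusted p in any tool and those with the smallest p (up to 10), the genes the study names, and per list up to 4 with the smallest p and 2 with the highest mean. Any other gene is marked in the text as picked with its values in view. The members and lists were chosen with earlier results of these data known, and lists are described by counts and medians without a test. Positions and names came from GENCODE M21 (GRCm38) and promoter windows from RefSeq. The labels do not pair mice between groups. They place all libraries on 1 sequencing run and give no batch or day of surgery, dissociation or sorting, so such batches were not examined. A few genes are not reported here.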

Additional observations from a re-analysis of the deposited data

Results flagged for a closer look

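In 224 groups of 5 libraries tested with Dixon's ratio, the gap of the extreme library to the nearest one over the whole range, 24 passed the 95% critical value of 0.71, where chance gives about 1 in 20. Sham 2 was the extreme library in 15 of them, 13 times as the highest and 2 times as the lowest.

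In sham mice sham 2 was highest for Serpina3n (ratio 0.869), Serpina3g (0.750), Scn10a (0.850), Camk2g (0.877), Stat3 (0.773), Adcyap1 (0.878), Calca (0.756), Scg2 (0.870), Nefm (0.865), Tubb3 (0.806), Map1b (0.845) and Gap43 (0.764), and for the percent of reads in the top 100 genes (0.783). It was lowest for Shank1 (0.781) and for the number of genes with a read (0.713). For Calca, sham 2 had 326.5 CPM and the next sham library 198 CPM, and the SCI range was 233 to 312 CPM. Its 2568656 reads were the fewest of the 10 libraries.

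Among other sham libraries, sham 1 was highest for Fam169b (0.782), Kcnk18 (0.809) and Doc2b (0.848), sham 4 was highest for Psmb9 (0.864) and lowest for Kcnn3 (0.772). Psmb9, an immunoproteasome subunit, had 47.8 CPM in sham 4 and at most 15.6 CPM in the other sham libraries. In SCI mice, SCI 5 was lowest for Syn3 (0.716) and Socs3 (0.854), and SCI 3 was highest for Erf (0.760) and lowest for Adora1, an inhibitory adenosine receptor (0.824).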

How the results depend on the processing

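Counts at an adjusted p under 0.05, 0 in limma, were 3052 with library quality weights (1044 higher, 2008 lower in SCI), 457 and 2945 with values beyond 50% and 30% of the group mean left out, 1 with depth as a term and 12 in DESeq2, and 0 to 2503 with each library left out, where 2503 is without sham 2 (944 higher, 1559 lower) and the other 9 give 0. Counts at the study's thresholds, 1146 in limma, were 437 when all 15 libraries were fitted, 4876 with quality weights, 3459 with values beyond 30% left out, 595 among genes with a mean above 50 (294 higher, 301 lower) and 638 to 4571 with each library left out, the highest without sham 2 and the lowest without sham 5. Genes whose groups do not overlap, 244 in all, were 66 at a mean above 50 and 309 to 2733 with each library left out, and 460 without SCI 2, 496 without SCI 4 and 379 without SCI 5. Quality weights gave sham 2 a weight of 0.14. The differences in library measures, SCI minus sham, ranged over -0.75 to -0.37 for log2 reads, -2775 to -1404 for genes with a read, 0.0114 to 0.0396 for the mitochondrial percent and 0.478 to 0.947 for the percent in the top 100 genes, each outermost without sham 2.

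Outlier removal fits only values near the group mean, so its lower spread is built in; the other causes were not tested. At the study's thresholds the split was 340 higher and 806 lower, 544 and 340 with depth as a term, and 593 and 543 with quantile normalization. Same-numbered SCI and sham libraries had correlations of their deviations of -0.22 to 0.08, and differently numbered ones had -0.24 to 0.30. These values cannot tell whether mice of the same number were handled on the same day. With the number as a block, 0 genes passed an adjusted p under 0.05 and 237 higher and 720 lower passed the study's thresholds, and with block and depth term, added after the values were seen, 685 did (423 higher, 262 lower). The library left-out values of the library measures were also added after the values were seen. Many of the genes named were picked for a small p, or by the study, from these same libraries, which the alternatives refit. A kept direction is therefore no independent support. Of 108 genes compared across settings, 107 kept their direction in all alternatives and Cacna1g, 0.03 in limma, did not. It was -0.065 with a pseudocount of 5, -0.57 with quality weights, -0.57 and -0.24 with values beyond 50% and 30% left out, -0.25 in edgeR, -0.20 in DESeq2, -0.0094 with reads thinned and -0.57 to 0.25 with each library left out. Of the 108, 82 passed an adjusted p under 0.05 without sham 2, where 2503 of all 16141 tested genes did. Genes of a few CPM rest on few reads per library, down to 1 read for Syt13 in SCI 1.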

Other observations

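Beside the groups described above, interferon response genes gave 0 higher and 4 lower of 30 tested at an unadjusted p under 0.05, and 1 higher and 1 lower with the depth term. Among all genes 2.18% were higher and 6.79% lower, and with the depth term 4.71% were higher and 3.0% lower. Ifit2, an interferon-induced protein, had 36.2 to 46.1 CPM in SCI and 37.4 to 63.2 CPM in sham libraries (log2 difference -0.34), and Psmb9 averaged 9.62 ± 2.54 CPM in SCI and 20.7 ± 15.3 CPM in sham, where sham 4 had the highest value. Glucocorticoid receptor targets gave 3 higher and 0 lower of 20, and 4 higher and 1 lower with the depth term. Ddit4, an inhibitor of mTOR signalling induced by stress hormones, had 119, 101, 119.6, 121 and 106 CPM in SCI libraries, against 94.3, 96.4, 103, 79.1 and 91.0 CPM in sham libraries. Only sham 3 reached the SCI range (log2 difference 0.29, SE 0.08, limma adjusted p = 0.507, DESeq2 adjusted p = 0.195). Mt1, a metallothionein, averaged 77.0 ± 3.80 CPM in SCI and 66.9 ± 4.57 CPM in sham (log2 difference 0.20, and 0.19 with the depth term).

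Circadian clock genes gave 1 higher and 2 lower of 19, and 3 higher and 0 lower with the depth term. Cholesterol and fatty acid synthesis genes gave 3 higher and 0 lower of 29 over all libraries, 13 and 0 without sham 2, and 0 and 0 with the depth term. Of all genes 2.18% were higher and 6.79% lower over all libraries. The shares were 9.58% and 23.5% without sham 2, and 4.71% and 3.0% with the depth term. Of the inhibitory receptors, Galr1, a galanin receptor, had 9.05 to 14.6 CPM in SCI and 12.6 to 25.6 CPM in sham libraries (log2 difference -0.54), and Adora1 averaged 87.9 ± 17.8 CPM in SCI and 108 ± 10.4 CPM in sham (log2 difference -0.32). Ntrk3, the receptor of neurotrophin-3, had 98.4 to 236 CPM in SCI and 191 to 232 CPM in sham libraries (log2 difference -0.45).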
